A study of Mus musculus with 15 samples.

Results

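Transcript levels of 33 listed genes of cholesterol synthesis and of the SREBP pathway were examined in 2 mouse cell lines exposed to dexamethasone, a synthetic glucocorticoid. The list was drawn up by function: enzymes from acetyl-CoA to cholesterol, the SREBP transcription factors and their escort and retention proteins, sterol carriers, genes of sterol efflux and LXR control, and fatty acid enzymes that SREBPs also drive. Like the tests, it was chosen with earlier results of these data known. Of the 33, 32 had a value (Msmo1 under its older symbol Sc4mol), out of 15039 genes with a value, and all 32 were among the 9926 genes bright enough to be tested. Acat2 had no value under its name and was not analysed here. The 32 genes were read by 554 exon probesets, between 6 and 62 per gene.

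The 3134 line came from transformed C127 cells, which were isolated from a mammary tumour of RIII mice, and AtT-20 cells are pituitary corticotrophs, the ACTH-making type, from LAF1 mice. Both were kept for 48 h in serum stripped with charcoal and dextran, then collected at 0 h or after 2, 4 or 8 h of 100 nM dexamethasone, and the labels call the 0 h cells both untreated and vehicle treated. There were 8 arrays of 3134, 2 at each time, and 7 of AtT-20, with a single one at 8 h. No cells were kept for 2, 4 or 8 h without hormone, so effects of hormone and of time in culture cannot be told apart. Of 6 corticotroph markers with a value, 6 lay above the testing level (log2 6.59, the 40th percentile of all values) in untreated AtT-20 and 0 in 3134. In 3134, 2 of 6 epithelial markers lay above that level, Krt8 and Krt14, while Epcam, Cdh1, Krt18 and Krt5 did not, and 4 of 5 mesenchymal markers did. Most defining epithelial markers were thus below it in the line labelled as mammary adenocarcinoma. Hormone exposure could be read from Per1, a glucocorticoid-induced clock gene, which rose 6.43-, 5.92- and 4.65-fold at 2, 4 and 8 h in 3134 and 2.5-, 2.25- and 2.82-fold in AtT-20 (limma, highest adjusted p = 0.0219). Fkbp5, a glucocorticoid-induced co-chaperone, rose 6.32-, 8.27- and 7-fold in 3134 (highest adjusted p = 5.83e-06). In AtT-20 it was 1.62-, 2.16- and 2.06-fold higher with adjusted p = 0.323, 0.015 and 0.093, so that the 4 h value alone was past the threshold.

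Cells make cholesterol from acetyl-CoA through mevalonate, isoprenoids, squalene and lanosterol. When sterols in the endoplasmic reticulum are low, the escort protein Scap carries SREBP precursors to the Golgi, where they are cut, and the freed factors turn on the synthesis genes. When sterols are high, Insig1 and Insig2 hold Scap back, while oxysterols activate LXR receptors, which turn on the efflux pumps Abca1 and Abcg1. In the pituitary and the mammary gland, as elsewhere, this pathway feeds membranes, and in secretory mammary cells it also feeds milk fat.

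Promoter sequence of the members was read from RefSeq windows (GRCm38.p6) of 250 bases before each annotated start, which 25 of the 32 members had. The windows printed are those of Hmgcs1, the one member with a match to the sterol element, and of Insig1, Sc5d and Idi1, the members that passed a test after dexamethasone once the run of the arrays was a block. They run 5′ to 3′ along the strand of the gene, and capitals mark motif matches (TCACCCCAC for the sterol element, CACGTG for the E-box, and ATTGG, which is CCAAT read on the other strand).
Hmgcs1 (chr13:119690101-119690350, plus strand): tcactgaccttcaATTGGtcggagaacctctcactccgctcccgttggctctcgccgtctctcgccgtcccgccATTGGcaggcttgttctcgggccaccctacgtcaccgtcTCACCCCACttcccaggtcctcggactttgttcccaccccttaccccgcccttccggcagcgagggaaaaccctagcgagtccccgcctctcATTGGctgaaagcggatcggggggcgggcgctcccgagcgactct
Insig1 (chr5:28071162-28071411, plus strand): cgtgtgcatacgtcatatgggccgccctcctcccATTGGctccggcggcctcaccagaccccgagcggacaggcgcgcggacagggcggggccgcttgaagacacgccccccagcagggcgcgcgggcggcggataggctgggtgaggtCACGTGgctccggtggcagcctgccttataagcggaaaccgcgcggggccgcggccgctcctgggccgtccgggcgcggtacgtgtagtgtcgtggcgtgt
Sc5d (chr9:42264301-42264550, minus strand): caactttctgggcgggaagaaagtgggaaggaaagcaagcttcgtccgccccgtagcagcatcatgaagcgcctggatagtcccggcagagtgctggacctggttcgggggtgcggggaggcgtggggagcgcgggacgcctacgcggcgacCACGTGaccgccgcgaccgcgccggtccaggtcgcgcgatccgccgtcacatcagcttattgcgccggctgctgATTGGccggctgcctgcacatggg
Idi1 (chr13:8885356-8885605, plus strand): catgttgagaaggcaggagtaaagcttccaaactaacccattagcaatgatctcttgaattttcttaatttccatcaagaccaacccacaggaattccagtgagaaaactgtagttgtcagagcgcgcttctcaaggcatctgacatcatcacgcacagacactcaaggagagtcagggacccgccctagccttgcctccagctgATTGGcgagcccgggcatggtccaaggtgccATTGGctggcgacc
Both strands were searched for each motif, a gene with several starts counted once, and no matches overlap in the printed windows. The sterol regulatory element, searched as TCACNCCAC, was in 1 of 25 members (4.0%) and in 1.22% of all 27025 genes with a window. In Hmgcs1 its first base lay 137 bases before the start. The CCAAT box, which the SREBP partner NF-Y reads, was in 21 of 25 members (84.0%), against 37.5% of all genes and 41.3% of the 8077 tested genes with a window. The E-box CACGTG, another sequence that SREBPs can bind, was in 6 of 25 members (24.0%), against 6.86% of all genes and 10.3% of tested genes: Hsd17b7, Sc5d, Dhcr7, Insig1, Scap and Abca1. A strict glucocorticoid receptor palindrome (AGAACA, any 3 bases, TGTTCT) and an LXR repeat (AGGTCA, any 4 bases, AGGTCA) were in 0 of the 25 members, and in 0.0111% and 0.0148% of all genes. These matches describe letters in short windows, not binding.

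In untreated cells, most of the synthesis enzymes stood higher in 3134 than in AtT-20, while the efflux pumps stood lower. Of the 32 members, 16 were higher and 4 lower in 3134 at 0 h (limma on quantile-normalized log2 values, adjusted p below 0.05). Over all tested genes, 54.5% passed, 24.3% higher and 30.2% lower, so a difference between the lines was common, but among the members the calls lay mostly one way. With the serial-number run of the arrays within each line as a block, 19 were higher and 5 lower (29.7% and 37.2% of all genes). The block leaves the spread between runs out of the error. On the deposited scale with no further normalization, 4 were higher and 2 lower. The share of all genes in each direction is not given for that scale, so these calls are not read as a result about the members. Among the alternatives tried, the count of all genes called fell as low as 1982, from 5413 in the main fit. The members had a median log2 difference of 0.78, against -0.10 for all tested genes. Abca1 and Abcg1 were below the testing level in 3134 and entered the test only through AtT-20. In bulk samples such as these, fewer cells with a transcript and less of it per cell cannot be told apart. Among the 30 members above that level in all 8 groups, 16 were higher (53.3%) and 2 lower (6.67%), against 20.3% and 24.2% of the 7341 genes above it in all groups.

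**Figure D1:**
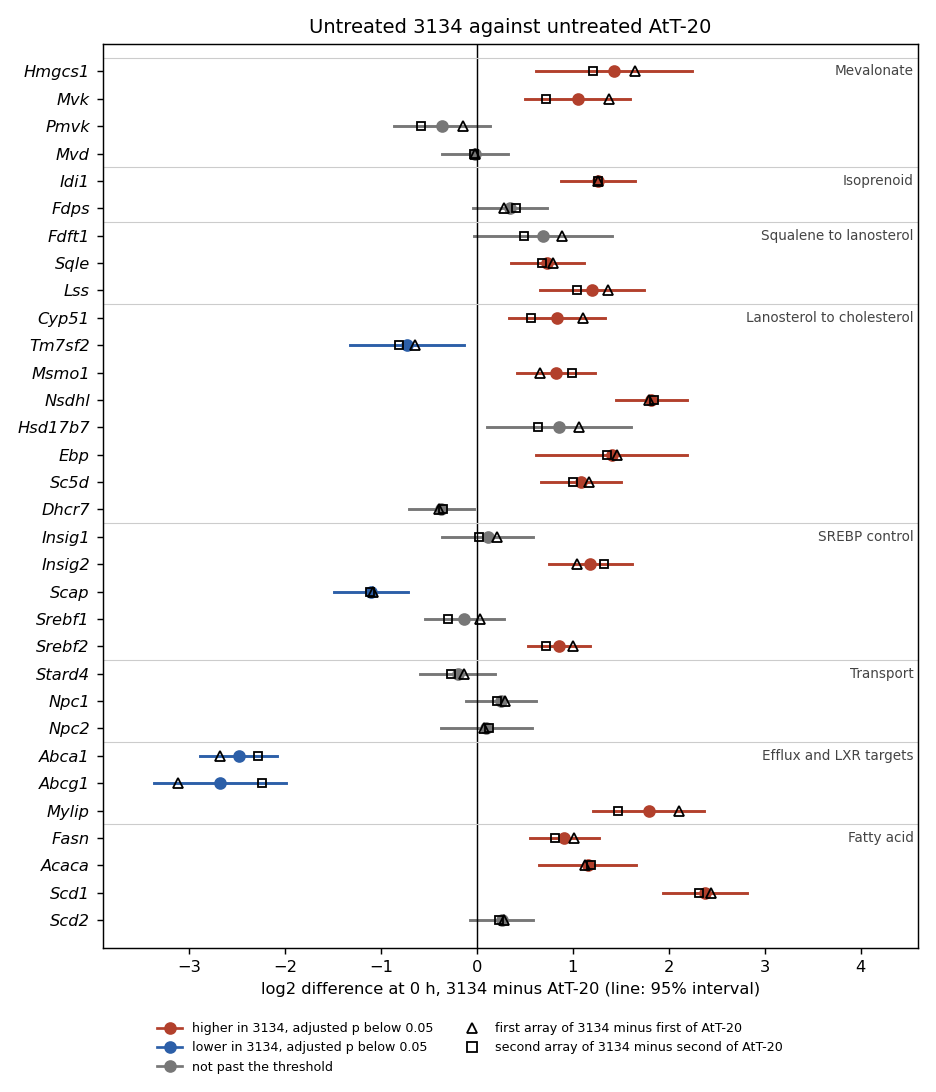
Log2 difference of 3134 minus AtT-20 at 0 h for the 32 members, grouped by role, with 95% intervals from limma (filled points, 2 arrays per line) and the difference between the first arrays of the lines (open triangles) and between their second arrays (open squares), whose serial numbers do not pair them across lines. Most synthesis and fatty acid enzymes lie right of 0, between 0.74 and 2.37 where called, and Abca1, Abcg1, Scap and Tm7sf2 lie left of 0.

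Of the 17 synthesis enzymes tested, 10 were higher and 1 lower in 3134. At the mevalonate steps, Hmgcs1, which makes HMG-CoA, had log2 levels of 11.73 and 11.97 in 3134, against 10.08 and 10.76 in AtT-20. The 2 arrays of 3134 were both above those of AtT-20, whose own arrays lay far apart, and the log2 difference was 1.43 (2.70-fold, adjusted p = 0.00611). All 13 of its probesets were higher in 3134. Without the first AtT-20 array at 0 h the difference was 1.10 (adjusted p = 0.0624). Mvk, mevalonate kinase, was 2.07-fold higher in 3134 (adjusted p = 0.0035). Pmvk and Mvd, which complete the path to isopentenyl pyrophosphate, differed by -0.36 and -0.02, and neither passed (adjusted p = 0.206 and 0.928). On the deposited scale both lay above 0.

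Idi1, which isomerizes isopentenyl pyrophosphate, was 2.40-fold higher in 3134 (log2 difference 1.26 ± 0.18, SE, adjusted p = 6.21e-05). Fdps, the farnesyl pyrophosphate synthase, differed by 0.35 (adjusted p = 0.119), and among the settings tried only fits with the block called it. In the branch from farnesyl pyrophosphate to lanosterol, squalene epoxidase Sqle was 1.66-fold and lanosterol synthase Lss 2.30-fold higher in 3134 (adjusted p = 0.00342 and 0.00144). Squalene synthase Fdft1 differed by 0.69 (adjusted p = 0.0991). It passed with the block, with the mean over its probesets (0.94, adjusted p = 0.00309) and without the second 3134 array at 0 h (1.07, adjusted p = 0.0387).

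The last steps, from lanosterol to cholesterol, held the enzyme with the largest called difference of the synthesis group. Nsdhl, a sterol dehydrogenase that takes part in removing the C4 methyl groups, had log2 levels of 11.69 and 11.48 in 3134, against 9.89 and 9.64 in AtT-20. Its 8 arrays of 3134 all lay above its 7 arrays of AtT-20, and the difference at 0 h was 1.82 ± 0.17 (3.52-fold, adjusted p = 1.73e-06). Of its 11 probesets, 10 were higher in 3134. Its difference was 1.29 when the gene was read as the mean over its probesets.

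Ebp, the sterol isomerase, was 2.65-fold higher in 3134 (adjusted p = 0.00563). The Ebp difference of 1.40 came to 0.88 with the mean over probesets, and to 1.11 (adjusted p = 0.0568) without the first 3134 array at 0 h. Sc5d, the sterol C5 desaturase, was 2.12-fold higher (adjusted p = 0.00042), Msmo1, the C4 methyl oxidase, 1.77-fold (adjusted p = 0.00241) and Cyp51, the lanosterol 14-demethylase, 1.78-fold (adjusted p = 0.00859). Cyp51 did not pass without the first 0 h array of 3134 (adjusted p = 0.0507) or of AtT-20 (0.62, adjusted p = 0.0833). Hsd17b7, a ketosteroid reductase of the same steps, differed by 0.85 (adjusted p = 0.0536) and passed with the block, with the mean over its probesets, with arrays centred on their medians, without either 3134 array at 2 h (adjusted p = 0.0439 and 0.0443) and without the second AtT-20 array at 0 h (1.23, adjusted p = 0.0227).

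Tm7sf2, a sterol C14 reductase, was the exception among the called synthesis enzymes. It was 1.66-fold lower in 3134 (log2 difference -0.73, adjusted p = 0.0379), and all 15 of its probesets were lower there. Of those probesets, 5 were below the testing level in untreated 3134 and 3 in untreated AtT-20. Tm7sf2 did not pass in 3 of the 8 alternatives that left out no array, among them no filter on low values. It also did not pass without the first 3134 array at 0 h (-0.56) or without the second AtT-20 array at 0 h (-0.48). Dhcr7, which makes the final reduction of the C7 bond in one arm of the pathway, differed by -0.37 (adjusted p = 0.0606; 0.0244 with the block).

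The genes that control SREBP did not move one way. Srebf2, the SREBP most tied to cholesterol genes, was 1.81-fold higher in 3134 (adjusted p = 0.000354), and Insig2 was 2.27-fold higher (log2 difference 1.18 ± 0.20, adjusted p = 0.000288). Scap, their escort, was 2.15-fold lower (log2 difference -1.10 ± 0.17, adjusted p = 0.00019), with 27 of 28 probesets lower in 3134. Srebf1, which encodes the SREBPs most tied to fatty acid genes, had a difference of -0.13 (95% interval -0.54 to 0.28, adjusted p = 0.581). Insig1 had log2 levels of 12.54 and 12.35 in 3134, against 12.33 and 12.33 in AtT-20, a difference of 0.11 (95% interval -0.36 to 0.58, adjusted p = 0.693). None of the 3 sterol carriers passed: the cytosolic carrier Stard4 differed by -0.20, and the lysosomal exporters Npc1 and Npc2 by 0.25 and 0.10 (adjusted p = 0.369, 0.23 and 0.73, with the unadjusted p of 0 of the 3 under 0.05).

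The efflux pumps were lower in 3134, where both lay below the testing level, so their folds are bounds. Abcg1, which passes sterol to HDL, had log2 levels of 5.63 and 6.40 in 3134, against 8.74 and 8.64 in AtT-20. It was at least 4.28-fold lower in 3134, with a measured log2 difference of -2.68 ± 0.32 (adjusted p = 1.47e-05). Abca1, which loads lipid onto apolipoprotein A-I, had 4.85 and 5.01 in 3134, against 7.53 and 7.30 in AtT-20. It was at least 1.77-fold lower, with a measured difference of -2.48 ± 0.18 (adjusted p = 2.07e-07), and 54 of its 59 probesets were below the testing level in 3134 and 20 in AtT-20.

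Mylip, a further LXR target, encodes a ubiquitin ligase, and it went the other way. Its log2 levels were 9.87 and 9.48 in 3134, against 7.76 and 8.01 in AtT-20, a difference of 1.79 ± 0.26 (3.46-fold higher in 3134, adjusted p = 0.000104). All 10 probesets were higher in 3134. The 3 genes of sterol export and LXR control were thus split, 1 higher and 2 lower.

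Of the 4 fatty acid genes, 3 were higher in 3134. Scd1, the stearoyl-CoA desaturase, had log2 levels of 12.72 and 12.76 in 3134, against 10.28 and 10.45 in AtT-20. Both lines had close replicates, and the difference was 2.37 ± 0.20 (5.18-fold, adjusted p = 7.51e-07). Its paralog Scd2 differed by 0.26 (95% interval -0.07 to 0.59, adjusted p = 0.165). Fasn, the fatty acid synthase, was 1.88-fold higher (adjusted p = 0.000496) with 50 of 50 probesets higher, and Acaca, acetyl-CoA carboxylase, 2.23-fold higher (adjusted p = 0.00112) with 62 of 62.

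**Figure D2:**
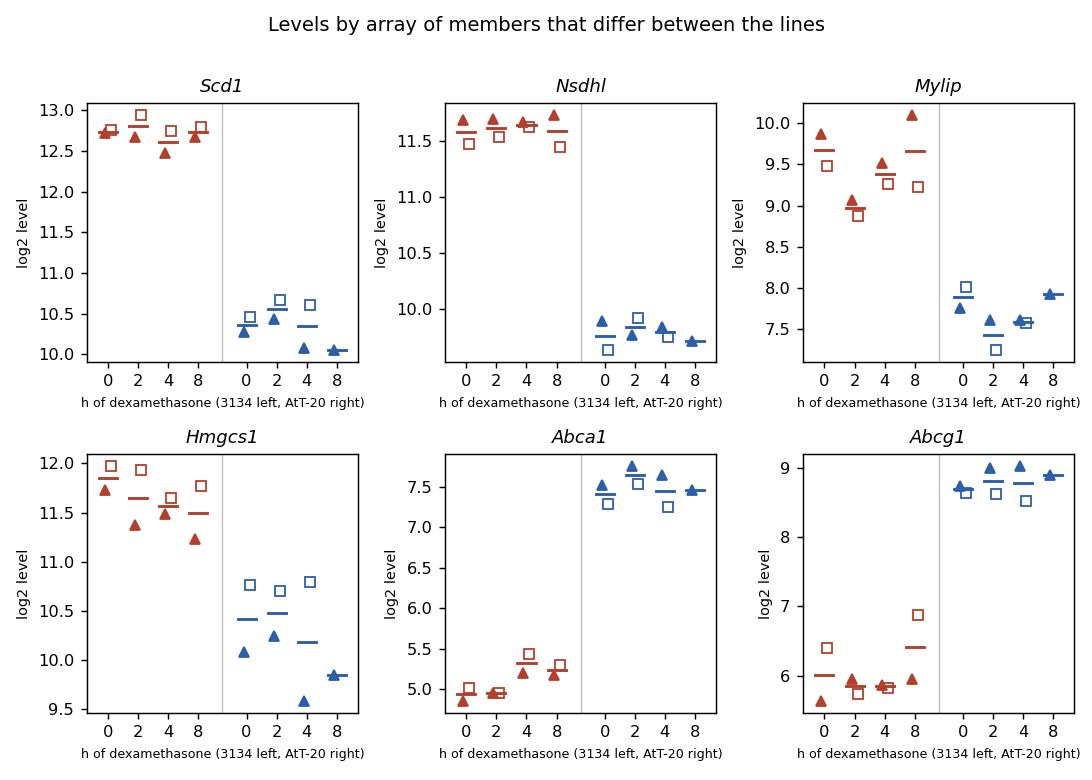
Log2 level on each array (triangles, first serial run of the line; open squares, its second run; bars, group mean) over hours of dexamethasone, 3134 at left and AtT-20 at right in each panel, for the 6 called members with the largest measured log2 differences between the lines, of which those of Abca1 and Abcg1 rest on 3134 values below the testing level. Scd1, Nsdhl, Mylip and Hmgcs1 lie higher on every 3134 array than on every AtT-20 array, and Abca1 and Abcg1 lie lower.

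Taken over all times, 17 members had every 3134 array above every AtT-20 array, 5 had every one below, and 10 overlapped. The 5 include Abca1 and Abcg1, which entered the test only through AtT-20, so their separation follows in part from the filter. Over all tested genes, 22.9% were separate and higher and 29.7% separate and lower. A second list held 42 pathway genes that are not members, chosen by function with earlier results of these data known. It had 32 tested genes, of which 11 were higher and 4 lower in 3134 at 0 h. In the same test 24.3% of all tested genes were higher and 30.2% lower. Lipa, the lysosomal lipase that frees cholesterol from esters, was at least 11.2-fold higher in 3134, where AtT-20 lay below the testing level (adjusted p = 2.88e-09). Soat1, which esterifies cholesterol, and Scarb1, the HDL receptor, were 5.87- and 4.74-fold higher (adjusted p = 1.35e-07 and 1.4e-06). Lrp1, a receptor for lipoprotein remnants, was higher by 3.58 on the log2 scale (adjusted p = 1.75e-08). Aacs, which makes acetoacetyl-CoA in the cytosol, was 3.02-fold higher. Vldlr, another lipoprotein receptor, was at least 4.74-fold lower in 3134 (adjusted p = 1.83e-08). It lay below the testing level there and entered the test only through AtT-20.

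Levels of single probesets also differed in shape between the lines. Unequal exon use (limma diffSplice, Simes test, mean of 0, 2 and 4 h) was called for 21 of the 32 members, against 50.3% of 11438 genes, and for 28 with the block (73.4% of genes). The smallest adjusted p belonged to Abcg1 (2.96e-20), Abca1 (7.99e-19) and Scd1 (6.85e-17). Of these, Abcg1 and Abca1 had levels below the testing level in 3134, and the part of dim signal in the exon result was not tested.

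In 3134 cells after dexamethasone, the members moved little, and those with the smallest p values pointed down. At 2, 4 and 8 h, 0 members passed in the test without the block, when 1.22%, 1.91% and 2.19% of all tested genes did. The unadjusted p was under 0.05 for 2, 1 and 3 of the 32 members, and for 494, 831 and 1139 of the 9926 tested genes. With the run as a block, 1 member passed at 2 h, 1 at 4 h and 2 at 8 h, all lower (1.04%, 1.89% and 3.58% of all genes were lower). The runs were taken as paired, so these blocked values stand beside the others.

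Insig1, the retention protein and itself a target of SREBP, was the member with the smallest p at 4 h. On the 3134 arrays its log2 level was 12.54 and 12.35 at 0 h, 12.005 and 11.74 at 2 h, 11.86 and 11.33 at 4 h, then 12.24 and 11.72 at 8 h. Every array after dexamethasone was below both 0 h arrays, with the 4 h arrays lowest within each run. At 4 h the difference was -0.85 ± 0.22 (1.80-fold lower, adjusted p = 0.0887), and it passed with the block (adjusted p = 0.00247).

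The same gene differed by -0.57 at 2 h (adjusted p = 0.646; 0.0429 with the block) and by -0.46 at 8 h (adjusted p = 0.453; 0.0636 with the block). Over the mean of the 3 times it fell by 0.63 on the log2 scale with the block (adjusted p = 0.00407; 0.118 without it; 6.54% and 2.43% of all genes passed). With the gene read as the mean over its 10 probesets, all of which were below 0 at 4 h, the 4 h difference was -0.73 and passed without the block too (adjusted p = 0.0179).

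Single arrays decided some of these calls. With the block, the 4 h value was -0.74 without the second 3134 array at 4 h (adjusted p = 0.0544) and -0.73 without the second 3134 array at 0 h (adjusted p = 0.0723), and the mean over times did not pass without that 0 h array (-0.50, adjusted p = 0.197). At 2 h Insig1 passed only in 3 of the 15 fits that left out 1 array, those without an 8 h array, and without the second 3134 array at 0 h it was -0.45 (adjusted p = 0.523).

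Sc5d had log2 levels in 3134 of 11.06 and 11.01 at 0 h, 10.70 and 10.95 at 2 h, 10.77 and 10.62 at 4 h, then 10.20 and 10.40 at 8 h. All treated arrays were below the 0 h arrays, and the 8 h arrays were lowest. At 8 h the difference was -0.74 ± 0.19 (1.66-fold lower, adjusted p = 0.0819), and with the block it passed (adjusted p = 0.00937). All 9 probesets were below 0 at 8 h, between -0.82 and -0.34.

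With the block, Sc5d at 8 h did not pass without the first 3134 array at 8 h (-0.64, adjusted p = 0.082), without the first at 0 h (-0.66, adjusted p = 0.127) or without the second at 0 h (-0.81, adjusted p = 0.056). Without the block it passed when either AtT-20 array at 4 h was left out (adjusted p = 0.0482 and 0.0487), with the difference at -0.73 in both fits.

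Idi1 had log2 levels in 3134 of 10.93 and 11.00 at 0 h, 10.84 and 10.86 at 2 h, 10.66 and 10.80 at 4 h, then 10.49 and 10.38 at 8 h. Within each run the level was lower at each later time. At 8 h the difference was -0.53 ± 0.18 (1.44-fold lower, adjusted p = 0.209; 0.0396 with the block), and all 6 probesets were below 0. With the block it passed in 5 of 15 fits that left out 1 array, all of them AtT-20 arrays, and without the second 3134 array at 8 h it was -0.43 (adjusted p = 0.264).

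**Figure D3:**
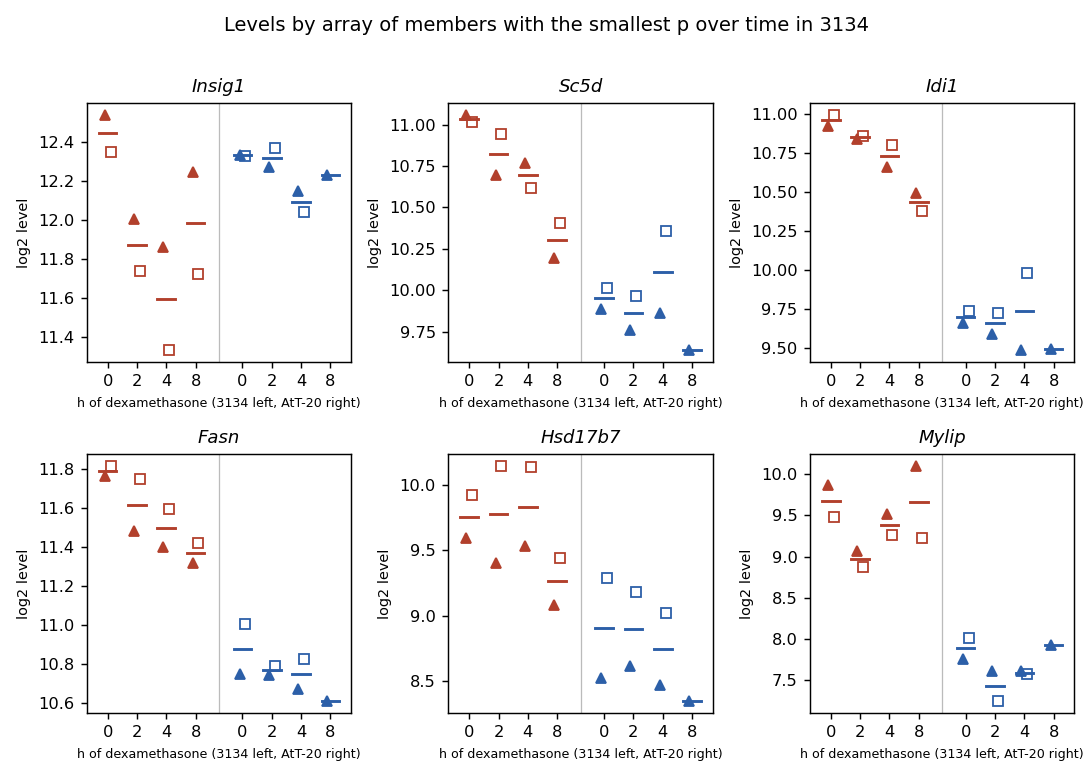
Log2 level on each array (triangles, first serial run of the line; open squares, its second run; bars, group mean) at 0, 2, 4 and 8 h of dexamethasone, 3134 at left and AtT-20 at right, for Insig1, Sc5d and Idi1 and for Fasn, Hsd17b7 and Mylip, which passed at no time with all arrays on the quantile-normalized scale. In 3134 Insig1 is lowest at 4 h, at 11.86 and 11.33, while Sc5d and Idi1 are lowest at 8 h, and the y axes differ between panels.

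Among the other members, Fasn differed by -0.42 at 8 h (95% interval -0.78 to -0.06, adjusted p = 0.31; 0.0666 with the block), with 49 of 50 probesets below 0. Hmgcs1 and Lss had all 13 and all 23 of their probesets below 0 at 8 h, but neither passed. The other way, Npc1 and Ebp had all 28 and all 9 of theirs above 0 at 8 h, and neither passed. Probesets of a gene were read on the same arrays, so their agreement is not replication. Mylip differed by -0.71 at 2 h (adjusted p = 0.635; 0.0679 with the block) and by -0.02 at 8 h, and its 8 h arrays, at 10.10 and 9.23, lay on either side of the 0 h arrays. With the block it passed at 2 h when either 3134 array at 8 h was left out (adjusted p = 0.0324 and 0.0325). Hsd17b7 differed by -0.50 at 8 h (adjusted p = 0.691; 0.0538 with the block). On the deposited scale with the block, both Fasn and Hsd17b7 passed at 8 h (-0.81 and -0.92, adjusted p = 0.0312 and 0.0121). On that scale, however, the median of all tested genes at 8 h in 3134 was itself shifted below 0.

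Few members of the other roles came near the threshold in 3134. The lysosomal exporter Npc1 differed by 0.33 at 2 h and again at 8 h (adjusted p = 1 and 0.503), with the arrays at both times above the 0 h arrays, but on the deposited scale the 8 h difference was -0.10. Abca1 differed by 0.39 at 4 h (adjusted p = 0.622), at levels of 5.20 and 5.44, below the testing level. Squalene epoxidase Sqle differed by -0.34 at 8 h (95% interval -0.72 to 0.04, adjusted p = 0.519). Insig2 differed by -0.42 at 4 h (95% interval -0.86 to 0.01, adjusted p = 0.613), and the carrier Stard4 by -0.31 at 2 h (adjusted p = 1).

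As a group, 24, 22 and 20 of the 32 members had differences below 0 in 3134 at 2, 4 and 8 h. Of all tested genes 53.8%, 52.8% and 52% were below 0, and of the 32 tested genes of the second list 23, 23 and 24. The medians of the members were -0.07, -0.10 and -0.09, against -0.02, -0.02 and -0.01 for all tested genes. At 8 h, 13 members had both arrays below both 0 h arrays and 3 had both above. Over all tested genes 22.6% lay wholly below and 20.2% wholly above. The comparisons of 2, 4 and 8 h share their 0 h arrays and are not independent of each other. Of the 17 synthesis enzymes, 11 were below 0 at 8 h, against 52% of all tested genes, with values from -0.74 to 0.30. Between 2 and 8 h, 0 members passed in limma without or with the block (0.0907% and 1.98% of all genes). The unadjusted p was under 0.05 for 724 of the 9926 tested genes and for 3 members: Sc5d at -0.52, Idi1 at -0.42 and Mylip at 0.69.

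**Figure D4:**
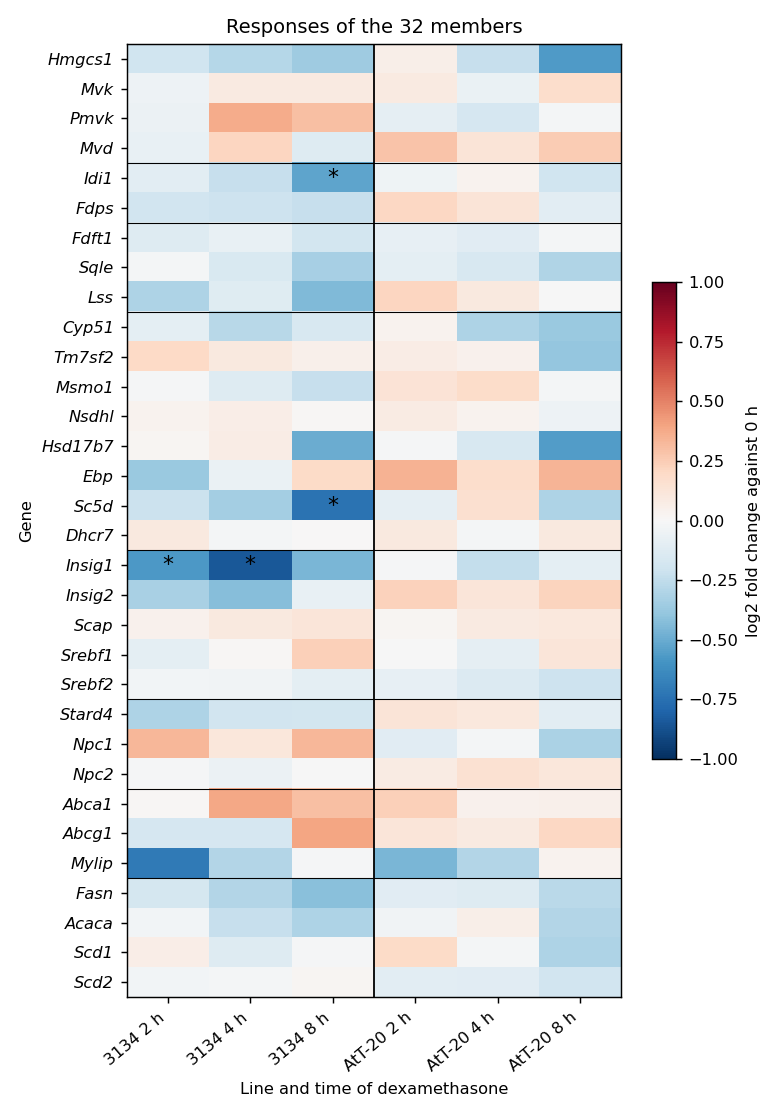
Log2 fold change against 0 h of each of the 32 members in 3134 and in AtT-20 at 2, 4 and 8 h (colour, blue lower and red higher; rows grouped by role; 2 arrays per group, 1 for AtT-20 at 8 h). Stars mark values that passed with the serial run as a block and not in the fit without it, Insig1 at 2 and 4 h and Sc5d and Idi1 at 8 h in 3134, and AtT-20 has none.

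Of the 32 tested genes of the second list, 0 passed in 3134 in limma without the block at any time. The unadjusted p of 0, 2 and 4 of them was under 0.05 at 2, 4 and 8 h. Over all 9926 tested genes it was under 0.05 for 494, 831 and 1139. With the block, Elovl6, a fatty acid elongase, was lower by 0.79 and 0.83 on the log2 scale at 4 and 8 h (adjusted p = 0.00389 and 0.00274), and Por, the electron donor of Cyp51 and Sqle, was higher by 0.75 at 8 h (adjusted p = 0.00719).

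In AtT-20 no response of a member passed. At 2, 4 and 8 h, 0 members passed with limma without or with the block, and the unadjusted p of 0 members was under 0.05. Of all tested genes, 0.0907%, 0.171% and 0.121% passed without the block and 0.322%, 0.856% and 0.443% with it. Insig1 had log2 levels of 12.33 and 12.33 at 0 h, 12.27 and 12.37 at 2 h, 12.15 and 12.04 at 4 h, then 12.23 at 8 h. Its 4 h arrays were both below both 0 h arrays, by a mean of 0.24 (95% interval -0.71 to 0.23, adjusted p = 1).

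Sc5d in AtT-20 had 9.89 and 10.02 at 0 h, 9.76 and 9.96 at 2 h, 9.86 and 10.36 at 4 h, then 9.64 at 8 h. Idi1 had 9.66 and 9.74 at 0 h, 9.59 and 9.73 at 2 h, 9.49 and 9.98 at 4 h, then 9.50 at 8 h. Both ranges at 4 h covered the 0 h arrays, and the single 8 h array lay below them.

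The test of a difference between the lines compared the mean response at 2 and 4 h in 3134 with the same in AtT-20. In this test 0 members passed without or with the block (0.645% and 2.73% of all genes). The unadjusted p was under 0.05 for 549 of the 9926 tested genes and for 2 of the 32 members. The 2 members were Insig2 at -0.55 (95% interval -1.08 to -0.02, adjusted p = 0.844) and Insig1 at -0.58 (95% interval -1.16 to -0.01, adjusted p = 0.891, and 0.116 with the block). Insig2 had log2 levels in 3134 of 10.29 and 10.40 at 0 h, 9.91 and 10.12 at 2 h, then 9.75 and 10.09 at 4 h. In AtT-20 it had 9.25 and 9.07 at 0 h, 9.54 and 9.24 at 2 h, then 9.06 and 9.51 at 4 h. All 4 arrays of 3134 at 2 and 4 h were below both 0 h arrays, while in AtT-20 the 4 h arrays lay on either side of those at 0 h. At 8 h, which this test left out, 3134 had 10.22 and 10.31, and these overlapped its 0 h arrays. With the block and without the first AtT-20 array at 4 h, the Insig2 difference was -0.72 (adjusted p = 0.0473).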

How the data were processed

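Transcript levels of 3134 and AtT-20 cells were read on 15 Affymetrix mouse exon arrays. Groups came from the sample titles, and replicate numbers from the order of the serial numbers in them. No label says that replicates came from different cultures. The p-values therefore cover only the variation among these arrays, perhaps technical, and so few arrays limit the precision. The members, the lists and the tests were chosen with earlier results of these data known.

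The deposited log2 values, 1 per probeset and array, came from RMA as run by the authors in Affymetrix Expression Console (per the submitters' processing notes, which name no version). The medians of the columns lay between 7.83 and 8.14 (first run) or 6.76 and 7.20 (second run) for 3134, between 7.51 and 7.86 or 6.93 and 7.22 for AtT-20, so the 15 arrays were quantile normalized. Of 228090 probesets, 207232 had 1 gene symbol in the platform annotation and were used, 3882 had several and 16976 none. Of 16207 symbols, 14055 were current in RefSeq (GRCm38.p6), 2092 were updated and 60 kept as given.

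A gene was the median over at least 3 probesets, tested if its highest group mean reached log2 6.59. The 8 groups entered 1 limma fit per gene (version 3.58.1, lmFit with eBayes, 2-sided tests, R 4.3.3, data.table in version 1.17.8) with 7 residual degrees of freedom and Benjamini-Hochberg adjustment over 9926 genes (threshold 0.05). A gene below log2 6.59 in one line is given as a fold bound against that level. Deviations of arrays from group means correlated at 0.492 to 0.59 over 9 same-run pairs within a line, and at 0.276 to 0.391 over 12 pairs across lines, so runs were taken as paired and the run within a line, which does not pair arrays across lines, served as a block (5 residual degrees of freedom). No pair of arrays was alike enough to be a repeat deposit (highest correlation 0.986). The tests were tried on simulated data. Values by array are given for members that passed a response test and for the 6 called members with the largest measured differences between the lines, and other pathway genes by smallest p. Alternatives were other scalings, filters, probeset summaries, only the arrays of 1 line, and leaving out each array.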

Additional observations from a re-analysis of the deposited data

How the results depend on the processing

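Of the members, 16 higher and 4 lower between the lines at 0 h gave 20 calls, and the alternatives gave between 6 and 24. The lowest was the deposited scale without a block, with 6 (4 higher, 2 lower), on which unequal exon use was called for 5 members. On that scale the median of all genes shifted to 0.22 at 0 h between the lines and to -0.37 at 8 h in 3134, and the members lay 0.84 above and 0.14 below it. With the replicate block, 1, 1 and 2 members passed in 3134 at 2, 4 and 8 h and 1 over the mean of the times; it changed no AtT-20 call. On the deposited scale with the block, 1 passed at 4 h, 2 over the mean and 2 between 2 and 8 h. At 8 h 6 passed on that scale (Fasn, Hsd17b7, Idi1, Insig1, Lss and Sc5d, all lower). The median of all genes there was itself shifted to -0.37, so these 6 calls cannot be read as particular to the members. With arrays centred on their medians and the block, 2 passed at 4 h (1 higher, 1 lower), 4 at 8 h (1 higher, Abca1, and 3 lower), 1 over the mean and 1 between 2 and 8 h; Abca1 was below the testing level there. With the mean over probesets, 1 passed at 4 h and 1 over the mean. The count of all genes called also changed over the alternatives that left out no single array. It is given as ranges, so no share of all genes stands beside the member counts of each scaling. It ran from 1982 to 6637 at 0 h between the lines. In 3134 it ran from 12 to 312 at 2 h, 9 to 552 at 4 h and 14 to 1163 at 8 h. Over the mean of the times it was 24 to 663, and between 2 and 8 h 0 to 340. The cause of these changes was not tested. Without 1 array, between 17 and 21 members passed at 0 h, 0 to 1 at 8 h and 14 to 21 in the exon test, and 0 in all other comparisons. Leaving out 1 array with the block, chosen after seeing the data, gave 22 to 25 at 0 h, 0 to 2 at 2 h, 0 to 1 at 4 h, 0 to 2 at 8 h, 0 to 2 over the mean, 0 to 1 for the difference of the responses, and 0 in AtT-20 and between 2 and 8 h. No difference that passed with or without the block changed sign in these settings. Of 27 named differences that passed in neither fit, 8 changed sign in at least 1 setting: between the lines, Pmvk, Mvd, Srebf1 and Stard4 on the deposited scale, and Insig1 and Npc2 without single 0 h arrays; in 3134 at 8 h, Npc1 on the deposited scale and Mylip, which ranged from -0.45 to 0.42. The AtT-20 response at 8 h rests on 1 array, and levels below log2 6.59 limit what can be read of Abca1 and Abcg1 in 3134.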
